A study of Mus musculus with 16 samples.

Results

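In mouse macrophages, 593 stretches of the genome carried an H3K27ac peak in untreated cells and in cells given interferon gamma (IFNγ), and no listed peak when the PARP inhibitor PJ34 was present in either setting. They were selected on the peak lists themselves. Peaks of the 4 conditions that overlapped by at least 1 bp were joined into 55218 regions, and those with Control and IFNγ peaks and with no PJ34 or IFNγ+PJ34 peak were kept, 1.07% of all regions. The number depended on the merging: it was 821 when a list counted as present only where its peaks covered 50% of a region, and 321 when peaks up to 1 kb apart were joined. The cells were bone marrow-derived macrophages (BMDMs), primary cells differentiated in culture from the marrow of C57BL/6 mice aged 8 to 12 weeks. Control cells received neither agent, IFNγ cells received 100 ng/mL of the cytokine for 1 h, PJ34 cells received 20 µM of the inhibitor, and IFNγ+PJ34 cells received the inhibitor 1 h before the same dose of IFNγ. Each condition had 2 ChIP replicates, and a deposited peak is one that the authors called in both, so a condition has a single list and no value below has a replicate error. Absence means that no such peak was listed. It is not a measured acetylation level of 0, and the lists hold no read counts from which a level could be taken.

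H3K27ac is acetylation of lysine 27 of histone H3. The coactivators p300 and CBP place it on nucleosomes beside active enhancers and promoters, and deacetylases remove it. PARP-1, the main nuclear target of PJ34, uses NAD to attach ADP-ribose to histones, transcription factors and other chromatin proteins. IFNγ signals through JAK kinases, acts on genes with GAS elements and raises the transcription of antigen presentation and host defence genes, while PU.1, C/EBP, RUNX and AP-1 factors occupy much of the enhancer repertoire of macrophages.

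The DNA at the centre of the highest-ranked regions shows what kind of sequence the rule selected. Regions were ordered by the lower of their 2 score percentiles, that is, the rank of the peak's score within the Control list and within the IFNγ list, where 100 is the top of the list. The windows are 200 bp around the summit of the higher-ranked peak (GRCm38, the mm10 build of the peak lists), each named by the nearest protein-coding start site. Capitals mark matches, on either strand, to any of 11 of the 12 short motifs that are spelled out with the motif results (all but a control).
Mtmr10, chr7:64277447-64277646, plus strand: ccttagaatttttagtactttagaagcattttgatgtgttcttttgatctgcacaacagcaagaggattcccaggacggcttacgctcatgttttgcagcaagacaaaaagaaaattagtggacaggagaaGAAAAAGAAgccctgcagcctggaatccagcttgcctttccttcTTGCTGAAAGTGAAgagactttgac
Gm340, chr19:41597386-41597585, plus strand: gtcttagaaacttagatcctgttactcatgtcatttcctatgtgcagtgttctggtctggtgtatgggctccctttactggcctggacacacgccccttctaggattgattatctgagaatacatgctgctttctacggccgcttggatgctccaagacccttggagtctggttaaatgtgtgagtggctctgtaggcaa
Txn2, chr15:77933748-77933947, plus strand: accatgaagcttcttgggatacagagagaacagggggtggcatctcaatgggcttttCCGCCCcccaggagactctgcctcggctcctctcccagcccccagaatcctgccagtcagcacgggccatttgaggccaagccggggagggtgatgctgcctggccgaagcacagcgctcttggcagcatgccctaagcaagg
Rab27a, chr9:73071104-73071303, plus strand: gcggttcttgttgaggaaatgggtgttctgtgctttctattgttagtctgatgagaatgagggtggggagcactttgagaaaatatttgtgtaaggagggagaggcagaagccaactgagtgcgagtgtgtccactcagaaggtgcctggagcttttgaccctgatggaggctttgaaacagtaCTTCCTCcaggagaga
Mapk6, chr9:75416184-75416383, plus strand: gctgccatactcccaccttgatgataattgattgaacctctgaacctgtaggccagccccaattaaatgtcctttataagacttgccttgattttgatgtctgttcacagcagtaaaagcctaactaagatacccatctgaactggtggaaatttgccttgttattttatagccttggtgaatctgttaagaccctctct
Anks1, chr17:28013155-28013354, plus strand: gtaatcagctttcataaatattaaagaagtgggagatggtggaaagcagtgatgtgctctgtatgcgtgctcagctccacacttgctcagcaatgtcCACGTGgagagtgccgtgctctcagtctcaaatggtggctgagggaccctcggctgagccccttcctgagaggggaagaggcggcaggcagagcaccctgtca
The promoter region at Itgax, which encodes the integrin CD11c, is added because it covers a start site of a macrophage and dendritic cell gene. It was chosen after its values had been seen.
Itgax, chr7:128129570-128129769, plus strand: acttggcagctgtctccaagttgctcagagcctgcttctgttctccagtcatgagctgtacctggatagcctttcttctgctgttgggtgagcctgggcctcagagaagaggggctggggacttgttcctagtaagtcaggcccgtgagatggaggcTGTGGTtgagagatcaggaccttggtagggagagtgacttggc

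The windows were unlike one another. The Mtmr10 window was AT-rich (42.0% GC) and held 2 ISRE-type matches, 1 of them overlapping a C/EBP match. The Txn2 window had 62.0% GC and a GC box, and the Anks1 window a CACGTG E-box. In the Mapk6 window 65.0% of the bases were soft-masked as repeats in the reference. The Mapk6 and Gm340 windows held none of the 12 motifs. Over all 593 windows, 314 (53.0%, 95% exact interval 48.8 to 57.0%) held none of 11 motifs, leaving aside the exchanged GAS control, as did 53.6% of windows in the other regions found in exactly 2 lists.

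The selected regions were weak peaks in both lists that defined them. The values in this paragraph were part of the selection or come from the same peaks, and are a description with no test. Control percentiles ran from 0.320 to 68.9 with a median of 24.6, and IFNγ percentiles from 0.0786 to 65.5 with a median of 20.6. Only 5 regions ranked above the 50th percentile in both lists, 68 (11.5%) did so in at least one, and none reached the 75th percentile in either. Both peaks were below the 25th percentile in 194 regions (32.7%). Fold enrichment over the local background had a median of 3.80 in Control (1.97 to 12.61) and 3.55 in IFNγ (1.89 to 9.07), against 6.12 and 5.51 over the whole lists. The regions were narrow, with a median width of 516 bp (202 to 2090 bp), and 574 (96.8%) were made of 1 Control peak and 1 IFNγ peak. Even so, 529 (89.2%) had q under 0.01 in both lists.

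The Control percentile was the higher in 307 regions and the IFNγ percentile in 286, and they differed by more than 20 percentile points in 205, of which 121 ranked higher in Control and 84 in IFNγ. Across the 593 regions the percentiles had a Spearman's rho of 0.10 and a Pearson's r of 0.10, against 0.83 and 0.76 across all 25925 regions with peaks in both lists. In the opposite class, the 502 regions with peaks in PJ34 and IFNγ+PJ34 alone, the percentiles of those 2 lists had a rho of -0.02 and an r of -0.01. These are correlations across regions, which are not replicates. The ranks of the selected regions stopped at 68.9 in Control and 65.5 in IFNγ. The effect of this narrower range on the correlations was not tested. The summits themselves were close, with a median distance of 68 bp, and lay within 100 bp of each other in 384 regions (64.8%).

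**Figure D1:**
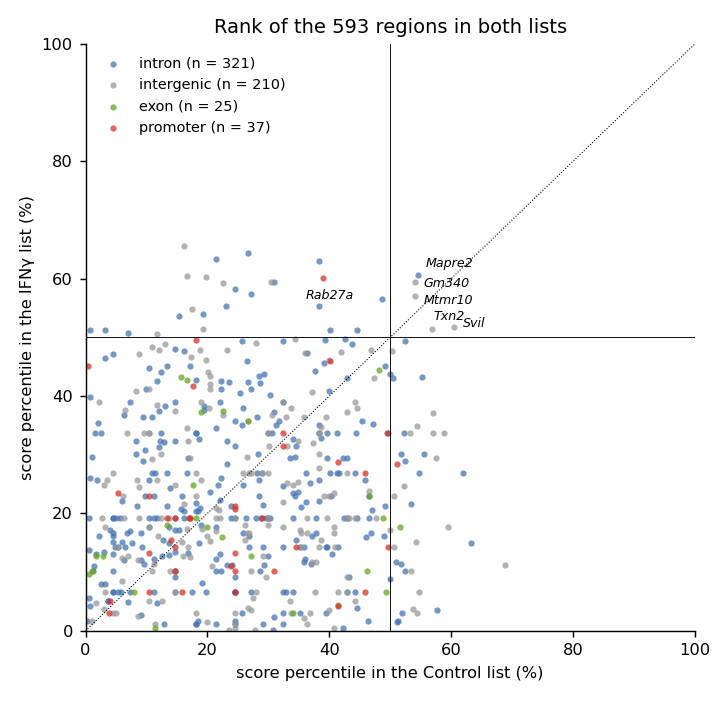
Each point is 1 of the 593 regions, placed by the score percentile (%) of its best Control peak (x axis) and its best IFNγ peak (y axis) and coloured by summit position; the solid lines mark the 50th percentile and the dotted line equal ranks. Most points lie below the 50th percentile in both lists, and the upper right corner holds 5 regions, nearest to Mapre2, Mtmr10, Gm340, Svil and Txn2.

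Of the 25925 regions with both Control and IFNγ peaks, 1433 (5.53%) had no PJ34 peak, 3617 (14.0%) had no IFNγ+PJ34 peak, and the 593 selected regions, which lacked both, made up 2.29% (95% exact interval 2.11 to 2.48%). These shares are what the rule fixed, and nothing is read from them. The opposite pattern, peaks in PJ34 and IFNγ+PJ34 alone, was found in 502 of 24313 regions with peaks in those 2 lists, 2.06% (1.89 to 2.25%). When the 25925 regions were divided into 10 equal groups by the lower of their Control and IFNγ percentiles, the selected regions made up 11.1% of the lowest group (289 of 2593), 7.79% of the second, 2.93% of the third, 0.810% of the fourth and 0.193% of the fifth (5 of 2593). None was found in the 5 highest groups, each of which allows a share of up to 0.142% by the exact interval. Absence from either list alone fell with rank too, from 22.8% to 0% for PJ34 and from 45.2% to 0% for IFNγ+PJ34.

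**Figure D2:**
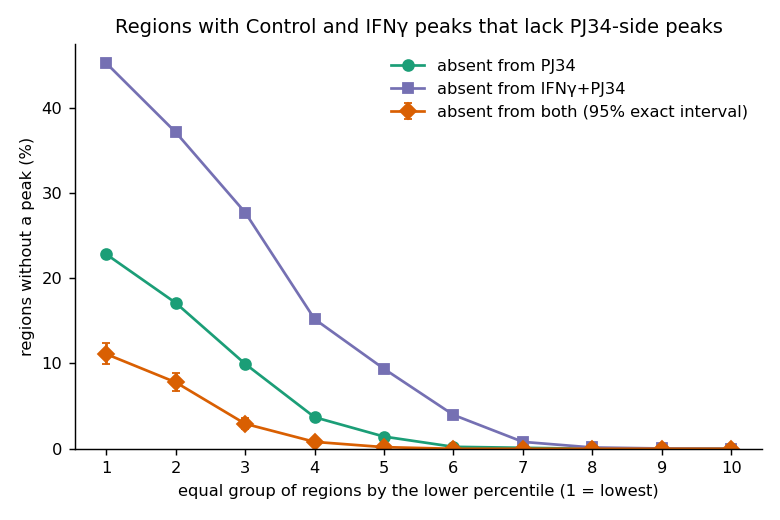
The x axis gives 10 equal groups of the 25925 regions with Control and IFNγ peaks, from the lowest to the highest by the lower of both percentiles, and the y axis the share (%) with no peak in PJ34, in IFNγ+PJ34, or in both, the last with its 95% exact interval. All 3 lines decline with rank, and the share absent from both goes from 11.1% in the lowest group to 0 from the sixth on.

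Many of the selected regions had PJ34 or IFNγ+PJ34 peaks close by. The gap to the nearest such peak ran from 6 bp to 316 kb with a median of 1.23 kb, and 287 regions (48.4%, 95% exact interval 44.3 to 52.5%) had one within 1 kb. A PJ34 peak lay within 1 kb of 249 regions, an IFNγ+PJ34 peak within 1 kb of 175, and both of 137. For the 287, the nearest such peak belonged to a region found in all 4 lists in 123 (42.9%), to a region of 3 lists in 87 (30.3%), to a region of PJ34 or IFNγ+PJ34 with neither Control nor IFNγ in 35 (12.2%), and to another region of 2 lists in 42 (14.6%). At the other end, 147 regions (24.8%) had no PJ34 or IFNγ+PJ34 peak within 10 kb, and 33 none within 50 kb. The lower of the 2 percentiles had a median of 15.6 with a PJ34 or IFNγ+PJ34 peak within 1 kb and 14.7 without. In the opposite class 50.2% of 502 regions had a Control or IFNγ peak within 1 kb, and in the other classes of 2 lists a peak of a missing list lay that near in 24.0% to 43.2%. The median width was 488 bp with a PJ34 or IFNγ+PJ34 peak within 1 kb and 532 bp without. The description of these regions as lost with PJ34 therefore covers both isolated peaks and peaks close to a PJ34 or IFNγ+PJ34 peak. How much acetylation changed at either was not measured by the lists.

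**Figure D3:**
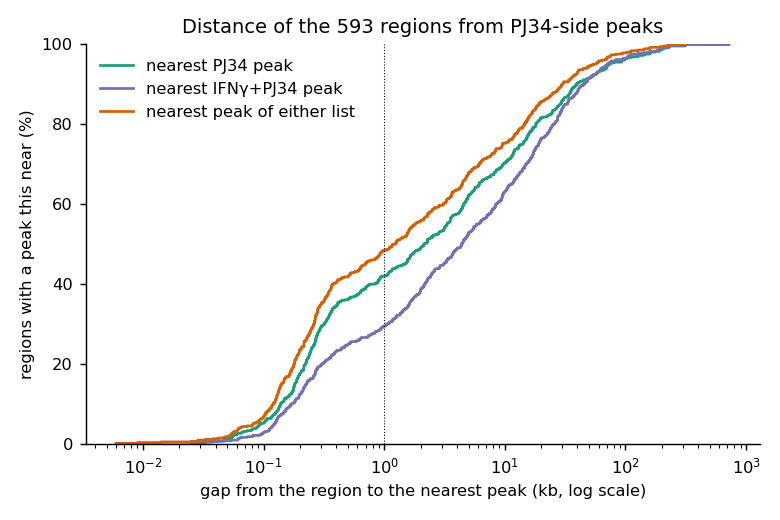
For the 593 regions, the lines give the cumulative share (y axis, %) whose nearest PJ34 peak, IFNγ+PJ34 peak or peak of either list lies within the distance on the x axis (kb, log scale); the dotted line marks 1 kb. At 1 kb the lines stand at 42.0%, 29.5% and 48.4%, and the PJ34 line stays above the IFNγ+PJ34 line over most of the range.

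The gap from a selected region to the nearest PJ34 or IFNγ+PJ34 peak had a lower quartile of 0.216 kb. The members nearest to a PJ34 or IFNγ+PJ34 peak were an intergenic region 346 kb from the Zmiz1 start site, 6 bp from an IFNγ+PJ34 peak, a region 49.6 kb from Ankrd50, 9 bp away, and the Tmigd1 promoter region, 14 bp away. Just outside the rule, a region 31.6 kb from Il1rl2 overlapped a PJ34 peak by 6 bp, 1 near Stim2 by 33 bp and 1 near Shisa5 by 68 bp. Of the 25332 regions with Control and IFNγ peaks that failed the rule, 2 did so by an overlap of 50 bp or less. Over the 25332, the largest overlap with a PJ34 or IFNγ+PJ34 peak had a median of 1117 bp.

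The highest-ranked region lay on chromosome 18, in an intron of Mapre2, which encodes a microtubule end-binding protein. It was at the 54.6 percentile in Control and 60.7 in IFNγ, with fold enrichments of 7.74 and 7.86, and a PJ34 peak lay 303 bp away while the nearest IFNγ+PJ34 peak was 10.3 kb away. The second, intergenic and 10.1 kb from the start site of Mtmr10, a myotubularin family member, was at the 54.0 and 57.0 percentiles (chr7:64276557-64278202). Both PJ34-side lists had peaks within 1 kb of it, at 649 and 738 bp. The region nearest to Gm340 (chr19:41596995-41597656) was at 54.0 and 59.5, with fold enrichments of 6.72 and 6.41, and stood alone, 112 kb from the nearest PJ34 peak and 67.2 kb from the nearest IFNγ+PJ34 peak. A region 87.4 kb from Svil, which encodes the actin-binding protein supervillin, ranked at 60.4 in Control and 51.8 in IFNγ and lay 132 bp from a PJ34 peak. The fifth, 4.84 kb from Txn2, the gene of mitochondrial thioredoxin, ranked at 56.8 and 51.5.

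Below these 5 regions, at least one of the ranks was under the 50th percentile. An intron of Rab27a, a GTPase of secretory granule docking, held a region at 48.6 in Control and 56.6 in IFNγ, with no PJ34-side peak within 11.9 kb. Rab22a, a GTPase of endosomes, had an intronic region at 44.6 and 51.3, but PJ34 and IFNγ+PJ34 peaks lay 116 and 150 bp from it. The region nearest to Mapk6, the gene of the kinase ERK3, was at 50.3 and 47.7, and that nearest to Tlr1, a lipopeptide receptor that pairs with TLR2, at 46.9 and 47.9, although the Tlr1 start site was 60.0 kb away.

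The remaining members of the 25 highest included introns of Anks1 (49.2 in Control and 45.1 in IFNγ), of Vps45, which acts in endosomal membrane fusion (43.7 and 48.8), and of Prkcb, protein kinase C beta (42.9 and 43.0, with the nearest PJ34-side peak 25.1 kb away). An intron of Osbpl3, nearest to the start site of Gsdme, the gene of the pore-forming gasdermin E, held a wide region of 2023 bp at 49.9 and 43.8, with a PJ34 peak 57 bp away. Regions nearest to AW554918 (55.3 and 43.3), Pkd1l2 (50.4 and 43.0), 4930519G04Rik (48.1 and 44.5), Zfp869 (47.3 and 43.0), Mfsd14b (42.6 and 49.8) and Gm9817 (42.0 and 47.5) also belonged to the 25. The last 5 were Tmigd1 (40.2 and 46.0), Adora2a, an adenosine receptor gene (40.2 and 51.3), Tmem100 (40.0 and 46.1), Hlcs, which encodes holocarboxylase synthetase (40.0 and 40.9), and Esd (39.3 and 49.5). The nearest gene is a label of position, and no expression value was used to link a region to it.

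The regions were mostly distal. Their summits lay in introns in 321 cases (54.1%), between genes in 210 (35.4%), within 1 kb of a protein-coding start site in 37 (6.24%) and in exons in 25 (4.22%). The median distance to a start site was 19.6 kb, 191 regions (32.2%) lay within 10 kb and 144 more than 50 kb away. Promoters held 21.6% of all regions, and the selected regions had a difference of -15.4 points (95% Newcombe interval -17.1 to -13.1), and the difference from regions of all 4 lists was -39.8 points (-41.6 to -37.5). Regions of all 4 lists rank far higher, however, with a median best percentile of 81.0 against 33.7. Against the 7497 other regions found in exactly 2 lists, whose median best percentile was 38.9, the promoter share differed by -0.377 points (-2.15 to 1.93), and the interval included 0. The intronic share was 5.33 points higher than in those regions (1.14 to 9.45) and the intergenic share differed by -6.18 points (-10.1 to -2.09), with intervals not adjusted over the 4 positions. When each list was restricted to its higher-scoring 50%, which selected mostly other regions, the intronic interval included 0 (6.84, -0.332 to 14.0). Compared with the 502 regions of PJ34 and IFNγ+PJ34 alone, the promoter share differed by -3.52 points (-6.88 to -0.310), and the intronic and intergenic intervals included 0. The promoter share differed by -3.22 points (-5.33 to -0.700) from regions of Control and PJ34 alone. From regions of IFNγ and IFNγ+PJ34 alone it differed by 2.52 points (0.462 to 4.94). Against the remaining classes of 2 lists the promoter intervals included 0. The intronic interval left out 0 against regions of Control and PJ34 alone (7.56, 3.03 to 12.0) and of Control and IFNγ+PJ34 alone (4.95, 0.373 to 9.48). It included 0 against regions of IFNγ and PJ34 alone and of IFNγ and IFNγ+PJ34 alone. The intergenic interval left out 0 against each of these classes, with a lower share in the selected regions. These intervals cover counting error only and treat regions as independent.

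**Figure D4:**
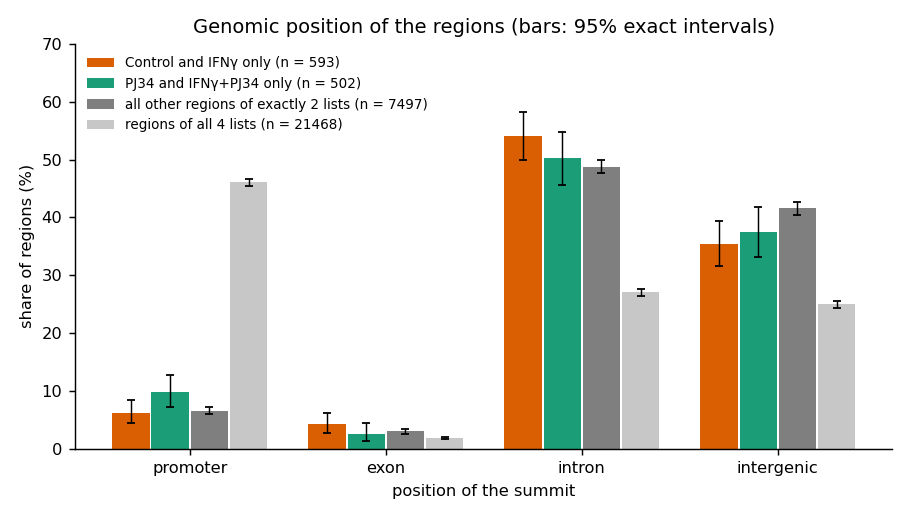
Bars give the share of regions (y axis, %) whose summit lies in a promoter, exon, intron or between genes, for the selected regions and 3 comparison groups, with 95% exact intervals. Promoters hold 6.24% of the selected regions and are the most frequent position only in regions of all 4 lists, while introns hold 54.1% of the selected regions.

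No chromosome stood out. The share of the selected regions on each chromosome, from 8.94% on chromosome 2 to 2.19% on X and none on Y, differed from that of the other regions of 2 lists by intervals that all included 0. Of the 593, 39 (6.58%) lay within 10 kb of another selected region. The 593 regions were nearest to 545 different genes, of which 500 were nearest to 1 region, 42 to 2 and 3 to 3. The 3 genes were Nrp1, the semaphorin and VEGF co-receptor neuropilin 1, Pde4d, a cAMP phosphodiesterase, and Dgat2l6 on chromosome X. At Dgat2l6 the 3 regions lay between 5.76 and 12.2 kb from the start site, and their Control percentiles were 38.3, 47.6 and 10.9 and their IFNγ percentiles 55.4, 19.2 and 10.2. The Nrp1 regions were 91.8 to 154 kb from the start site, with Control percentiles of 38.7, 9.09 and 6.43. Of the 3 Pde4d regions, all in introns, none was above the 19.2 percentile in either list.

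Of the 37 promoter regions, 23 (62.2%) had a PJ34 or IFNγ+PJ34 peak within 1 kb, against 47.5% of the 556 regions elsewhere, a difference of 14.7 points whose interval included 0 (-1.91 to 29.1). The 10 highest included those at Tmigd1, Gpt2, Itgax, Pdia5, Acsl3, Macc1, Rnase10, Mrgbp and Tmem171. The region 302 bp from the start site of Gpt2, an alanine aminotransferase gene, was at the 39.0 percentile in Control and 60.1 in IFNγ, with peaks of PJ34 at 331 bp and of IFNγ+PJ34 at 268 bp. At Itgax, whose window is printed above, the summit was 119 bp from the start site, the ranks were 49.4 and 33.7, and the nearest PJ34 and IFNγ+PJ34 peaks were 225 bp and 3.34 kb away. Pdia5, a protein disulfide isomerase gene, had a region at 32.4 and 31.5, and its nearest PJ34-side peak was 126 kb away. Acsl3, an acyl-CoA synthetase gene, was at 41.4 and 28.7, with a PJ34 peak 103 bp away.

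Macc1 was at 51.2 in Control and 28.5 in IFNγ, Rnase10 at 45.9 and 26.9, Mrgbp, which encodes a subunit of the NuA4 acetyltransferase complex, at 24.6 and 21.3, and Tmem171 at 24.6 and 20.8. The promoter regions below these 10 ranked at or below the 19.2 percentile in at least one list.

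The 200 bp windows had a mean GC content of 46.2% (SD 7.91 over the 593 regions), 0.101 points from the other regions of 2 lists (95% interval -0.561 to 0.764), and differed by -8.80 points from regions of all 4 lists (-9.46 to -8.15). The number of CpG dinucleotides per window differed by -0.110 from the other regions of 2 lists, and the interval included 0 (-0.402 to 0.182). By single class, the CpG difference was -0.904 (-1.47 to -0.338) from the PJ34 and IFNγ+PJ34 class, which had 3.40. It was -0.543 (-0.877 to -0.209) from the Control and PJ34 class and 0.440 (0.129 to 0.751) from the IFNγ and IFNγ+PJ34 class. For the remaining classes of 2 lists the CpG intervals included 0. GC content differed by -0.0196 points (-1.07 to 1.03) from the PJ34 and IFNγ+PJ34 class and by 0.109 (-0.610 to 0.827) from the Control and IFNγ+PJ34 class. The GC difference was -1.33 points (-2.06 to -0.606) from the Control and PJ34 class. It was 1.04 (0.284 to 1.79) from the IFNγ and PJ34 class and 1.57 (0.820 to 2.31) from the IFNγ and IFNγ+PJ34 class. Soft-masked repeat sequence made up 18.5% of the windows and 20.8% in the other regions of 2 lists, a difference of -2.28 points (-4.28 to -0.290), which did not hold with peaks up to 1 kb apart merged (0.0372, -2.84 to 2.91) or with 50% cover (-0.175, -1.90 to 1.55). A region of all 4 lists lay within 5 kb of 262 selected regions (44.2%), 1.94 points from the other regions of 2 lists (-2.16 to 6.11). By single class, this share differed by -6.33 points (-10.8 to -1.81) from the Control and PJ34 class. The difference was 6.10 (1.61 to 10.6) from the Control and IFNγ+PJ34 class and 12.0 (7.24 to 16.7) from the IFNγ and IFNγ+PJ34 class. Against the remaining classes of 2 lists its intervals included 0. The single-class intervals were not adjusted over the classes.

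The motifs searched on both strands of the windows were GAS (TTCNNNGAA, an element of IFNγ-responsive sites), its exchanged control (GAANNNTTC), ISRE (GAAANNGAA, an element bound by IRF factors), PU.1 (GAGGAAG), AP-1 (TGANTCA), C/EBP (TTGCNNAA), RUNX (TGTGGT), NF-kB (GGGANTTTC), E-box (CACGTG), CRE (TGACGTCA), GC box (GGGCGG) and MEF2 (TATTTATAG). GAS and ISRE share their GAA end and can overlap, as can ISRE and C/EBP in the Mtmr10 window. RUNX was the most frequent, in 101 windows (17.0%), against 15.4% of other regions of 2 lists and 13.8% of all regions. AP-1 was found in 48 (8.09%, against 6.02% and 5.08%), C/EBP in 42 (7.08%, against 7.88% and 7.02%), PU.1 in 41 (6.91%, against 7.24% and 7.32%), and GAS in 37 (6.24%, against 6.54% and 5.83%). The exchanged GAS control was in 39 windows (6.58%, against 4.86% and 4.64%), and ISRE was in 30 (5.06%, against 6.87% and 6.29%). A GC box was in 23 windows (3.88%, against 4.26% and 10.5%), an E-box in 12 (2.02%, against 2.52% of all regions), NF-kB in 6 (1.01%, against 0.697%) and MEF2 in 1 (0.169%, against 0.255%). CRE was in none of the 593, which allows a share of up to 0.620%, and in 0.103% of all regions.

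Against the other regions of 2 lists, 0 of the 12 motifs had an interval that left out 0 at the 99.6% level used to adjust over 12 motifs. The largest of these differences, for AP-1, was 2.08 points (-0.715 to 5.96), and for GAS it was -0.296 (-2.75 to 3.27). Against the opposite class, RUNX was more frequent by 6.47 points (17.0% against 10.6%, adjusted interval 0.413 to 12.4) and the other 11 intervals included 0. In the remaining classes of 2 lists RUNX was in 15.4% to 16.6% of windows, so the low share was that of the opposite class. AP-1 exceeded its share in all regions by 3.01 points (0.331 to 6.83), and the GC box differed from it by -6.63 (-8.39 to -3.64). These levels were not adjusted over the comparison groups, and a match gives letters in a window, not binding of a factor.

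**Figure D5:**
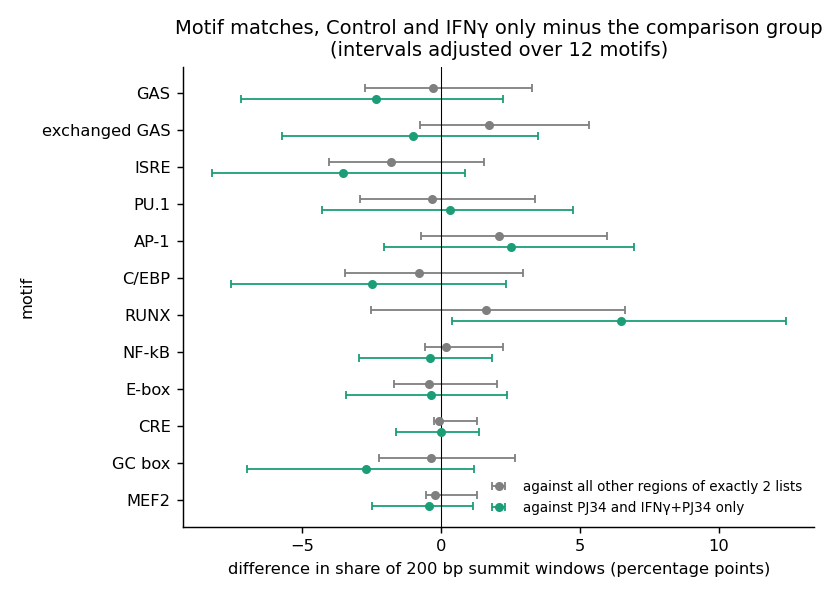
Points give the share of 200 bp summit windows holding each motif in the selected regions minus that in the comparison group (x axis, percentage points), with intervals adjusted over 12 motifs. Every interval against the other regions of 2 lists includes 0, and RUNX against the PJ34 and IFNγ+PJ34 class is the one interval shown that does not (0.413 to 12.4).

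The regions were then placed beside genes of 10 lists, taking a listed gene as near when a selected region lay within 50 kb of a start site. No set test was made. The lists hold genes active in macrophages, which have more acetylated regions around them: 96.8% of the 277 listed genes had a region of all 4 lists within 50 kb, against 67.9% of 21924 protein-coding genes. In all, 26 of the 277 had a selected region near (9.39%, 95% exact interval 6.22 to 13.5%), against 4.00% of all protein-coding genes, and 31 of the 277 had a region of the opposite class near, against 3.15% of all.

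Of 49 matched IFNγ response genes, 3 (6.12%, 1.28 to 16.9%, against 4.00% of all genes) had a selected region near, among them H2-Aa and H2-Eb1, which share 1 region. The intergenic region near the MHC class II genes H2-Aa and H2-Eb1 lay 34.1 and 16.1 kb from their start sites. The start site nearest to it was that of H2-Eb2, 3.72 kb away. This region ranked at 16.7 in Control and 17.3 in IFNγ, and a PJ34 peak lay 82 bp from it. The count was 9 of 49 (18.4%, against 5.61% of all genes) when presence required 50% cover, and 1 of 49 with peaks up to 1 kb apart merged. None of 30 NF-κB and inflammatory genes had a selected region near, which allows up to 11.6%. The alternative activation list had none of 19, which allows up to 17.6%.

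Among 25 macrophage identity genes, 2 had selected regions (8.00%, 0.984 to 26.0%, against 4.00% of all genes). They were Csf1r, the receptor of the growth factor CSF-1, and Runx1, a transcription factor of haematopoiesis. The Csf1r region was intronic, 8.47 kb from the start site, at 18.2 in Control and 20.4 in IFNγ, with a PJ34 peak 729 bp away and an IFNγ+PJ34 peak 2.00 kb away. The Runx1 region, at 14.7 and 13.5, lay 120 and 128 bp from PJ34 and IFNγ+PJ34 peaks. Of the 29 genes of the PARP family and NAD metabolism, which include the target of the inhibitor, 4 had a region near. That share was 13.8% (3.89 to 31.7%), against 4.00% of all genes. Tiparp, a mono-ADP-ribosyltransferase gene, had one 4.44 kb from its start site at 20.1 and 44.1, with a PJ34 peak 47 bp away. Nampt, which encodes the NAD salvage enzyme, had one 4.51 kb away at 11.7 in Control and 50.5 in IFNγ, 281 bp from an IFNγ+PJ34 peak. Macrod2, an ADP-ribosylhydrolase gene, had a promoter region at 24.6 and 10.2 that stood 224 kb from the nearest PJ34-side peak. A region 40.0 kb from Nmnat2, an NAD synthesis gene, was at 16.9 and 32.4. Of 28 DNA damage genes, Trp53 alone had a region (3.57%, against 4.00% of all genes), 25.8 kb away, at 27.2 and 12.8. The start site nearest to that region was that of Dnah2, at 5.46 kb.

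In the list of actin, adhesion and migration, 6 of 30 genes (20.0%, 7.71 to 38.6%, against 4.00% of all genes) had a region. Other regions of 2 lists lay near 76.7% of this list, against 31.9% of all genes. Beside the Itgax promoter, an intron of Itgb2, the shared beta chain of the leukocyte integrins, held a region at 44.5 in Control and 19.2 in IFNγ, 188 bp from a PJ34 peak. Itgav, an integrin alpha chain gene, had one at 2.76 and 19.2, and Vcl, which encodes vinculin, one at 16.1 and 21.6 with no PJ34-side peak within 5.01 kb. Wasf2, an activator of actin branching, had 2, at 8.25 and 30.2 and at 18.2 and 3.01. The region 43.2 kb from Ccr2, the chemokine receptor of monocytes, was at 37.9 and 11.7 and had PJ34 and IFNγ+PJ34 peaks 372 and 302 bp away. In the lysosome and phagocytosis list, 5 of 27 genes (18.5%, 6.30 to 38.1%, against 4.00% of all genes) had a region. Other regions of 2 lists lay near 66.7% of these genes. Ctss and Ctsk, both cathepsin genes, share 1 in an intron of Arnt (40.5 and 13.1, 14.7 kb from PJ34-side peaks). Gpnmb had one at 17.5 and 6.60. Hexa, a lysosomal hexosaminidase gene, had one 11.3 kb away in an intron of Tmem202, at 38.3 and 33.7.

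Lipid genes with a region included Scd2, a fatty acid desaturase gene with 2 neighbouring regions 28.3 and 29.0 kb away, and Cd36, a scavenger receptor gene also counted in the lysosome list, whose intronic region was at 36.1 in Control and 12.2 in IFNγ. In this list 3 of 28 genes had one (10.7%, 2.27 to 28.2%, against 4.00% of all genes). The list of AP-1 and immediate early genes also had 3 of 28. Atf3, a stress-induced transcription factor gene, had 2 regions, at 26.7 and 35.7 and at 29.3 and 11.2. Dusp1, a MAP kinase phosphatase gene, had one 9.72 kb away at 23.8 and 21.3, and Klf6 one 44.6 kb away at 12.0 and 47.9. The interval of each list overlapped those of the others, so no order of the lists is drawn. Regions of the opposite class lay near 8 IFNγ response genes, 7 NF-κB and inflammatory genes, 5 lipid genes, 4 macrophage identity genes, 3 alternative activation genes, 3 lysosome genes, 2 PARP and NAD genes, 2 DNA damage genes, 1 AP-1 gene and 1 actin gene. Over all protein-coding genes, the share with a region near was 4.00% for the selected regions and 3.15% for the opposite class. The differences between both classes in these counts were not tested.

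The lists behind these regions showed the promoters of the labelled cells. Of 12 macrophage markers, 11 had a promoter peak in the Control and PJ34 lists and 10 in the IFNγ and IFNγ+PJ34 lists, and none of 12 T, B and NK cell markers had one in any list. For the lists ordered as Control, IFNγ, PJ34 and IFNγ+PJ34, neutrophil and progenitor markers had 3, 3, 4 and 1 of 12, fibroblast and stroma markers 0, 0, 1 and 0 of 12, and erythroid, megakaryocyte and mast cell markers 1, 1, 2 and 1 of 12. The part of any such cells in the selected regions was not tested. The number of peaks per list was similar, from 40708 in IFNγ to 44090 in PJ34, and covered between 42.5 and 52.6 Mb.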

How the data were processed

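ChIP-seq for H3K27ac and matched input DNA were available from BMDMs under 4 conditions, with 2 replicates of each (8 ChIP and 8 input samples, grouped by title). The study aligned reads to mm10 with Bowtie, filtered them, called relaxed peaks per replicate with MACS against input at a p-value of 0.01, and kept peaks found in both replicates, which gave 1 list per condition. For each peak the deposited lists hold a score, a fold enrichment (a ratio), and the −log10 of the p-value and of the q-value, all written by the authors' caller, together with the summit offset. Read depth is not given in the sources used here.

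From these lists, overlapping peaks (at least 1 bp) were merged into regions with Python 3.11.15 and pandas 2.3.3. Scores were ranked within each list, with ties ordered by −log10 p. Start sites and exons of 21924 protein-coding genes came from GENCODE M21 and sequence from RefSeq GRCm38.p6, read with pysam 0.24.0. Shares have exact Clopper-Pearson intervals, differences of shares Newcombe intervals and differences of means normal intervals (95%, or 99.6% over 12 motifs; SciPy 1.17.1). All cover counting error only, and with 1 list per condition no p-value is given. The functions were tested on simulated data. The selected regions, gene lists, motifs and tests were chosen with earlier results of these data known. Named were the 25 highest regions by the lower percentile, the 10 highest promoter regions, listed genes with a region within 50 kb, genes nearest to 3 or more regions and the 3 regions on each side of the rule. A few regions that this rule names are not reported here. Alternatives changed the merging, the threshold, the size of the lists, the distances and the window, and a comparison weighted by rank and the settings for intronic, intergenic and soft-masked shares were chosen with the data already seen.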

Additional observations from a re-analysis of the deposited data

How the results depend on the processing

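No paired analysis was possible because a condition has 1 deposited list, which joins its replicates, and single replicates could likewise not be omitted. Over 183 differences recomputed under the alternatives, single motifs included, 141 kept their direction and their side of the threshold, 37 changed sign with intervals that included 0, 4 no longer passed and 1 newly passed. The number of selected regions was 321 with peaks up to 1 kb apart merged, 193 when each list was restricted to its higher-scoring 50%, 306 with no peak of a missing list within 1 kb, and 4 where every peak was in the higher-scoring 50% of its own list. It was 821 with 50% cover, 662 with lists of equal size, 580 on autosomes and 574 with q under 0.01. Restricting each list to its higher-scoring 50% also dropped the lower-scoring PJ34 and IFNγ+PJ34 peaks. Only 5 of the 593 ranked above the 50th percentile in both Control and IFNγ, so most of the 193 were other regions.

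Against the other regions of 2 lists, the differences in promoter share, GC content and nearness to a region of all 4 lists changed sign in several settings. The promoter difference was 0.419 points after restriction to the higher-scoring 50% and 0.824 with lists of equal size. The GC difference was -0.122 with 50% cover, -0.00451 with q under 0.01 and -0.438 after restriction to the higher-scoring 50%. The share with a region of all 4 lists within 5 kb differed by -1.13 points with 1 kb merging, -1.12 with no missing-list peak within 1 kb, -2.37 with all peaks in the higher-scoring 50% of their own lists and -0.693 with the comparison weighted by rank, a setting chosen after the data had been seen. After restriction to the higher-scoring 50% it was 7.10 (0.605 to 14.2), which passed the threshold. The causes were not tested. IFNγ response genes with a selected region numbered 9 of 49 (18.4%, against 5.61% of all genes) with 50% cover, 1 with 1 kb merging, 1 with no missing-list peak within 1 kb, 5 within 100 kb (10.2%, against 7.38%), 0 where every peak was in the higher-scoring 50% of its own list and 0 within 10 kb, where fewer genes can be reached by construction.

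Settings for the intronic, intergenic and soft-masked shares were chosen with the data already seen. The intronic difference was 6.84 points and no longer passed after restriction to the higher-scoring 50%, and was -22.7 in the 4 regions with every peak in the higher-scoring 50%, where the intergenic difference was 28.4 and the soft-masked difference -8.20. The soft-masked difference was 0.0372 with 1 kb merging, 1.02 after restriction to the higher-scoring 50%, -0.175 with 50% cover and -1.17 with no missing-list peak within 1 kb. In the other settings run the 3 differences kept their direction and passed.

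For single motifs, 0 of 12 passed the threshold in any setting. Merging within 1 kb gave differences of -0.461 for exchanged GAS, 0.447 for ISRE, 0.183 for PU.1 and 0.524 for E-box. With no missing-list peak within 1 kb they were 0.0541 for GAS, -0.969 for exchanged GAS and 0.665 for E-box. With 50% cover they were 0.305 for PU.1 and 0.0501 for CRE, and with q under 0.01 they were 0.308 for PU.1 and 0.00718 for MEF2. A 300 bp window gave 0.884 for PU.1, 0.0352 for CRE and 0.490 for GC box. Restriction to the higher-scoring 50% gave 0.507 for ISRE, -0.329 for AP-1 and -0.823 for NF-kB, and lists of equal size gave -0.0723 for NF-kB and 0.0512 for CRE. The 4 regions with every peak in the higher-scoring 50% gave -3.79 for exchanged GAS, 18.8 for ISRE, -4.88 for AP-1, 17.7 for C/EBP and -0.813 for NF-kB.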
